A study of Arabidopsis thaliana with 12 samples.

Results

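The salicylic acid (SA) branch of the plant immune response is described here through 10 Arabidopsis genes in leaf RNA of catalase-deficient seedlings under photorespiratory stress, with and without the compound pakerine. The genes are NPR1, its interactors NIMIN1 and NIMIN2, the transcription factors WRKY54 and WRKY70, the output genes PR1, PR2, PR5 and PCC1, and the SA glucosyltransferase gene UGT74F2. They were chosen by gene identifier, with earlier results of these data known, and all 10 were among the 21882 genes of the deposited table. Their counts beside the share over all genes are therefore descriptions. Pakerine is a sulfonamide that came out of a screen for compounds that lessen the damage of stressed catalase mutants, and the question was which transcripts differ with the stress, with the compound and with both.

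RNA was sequenced from 4 groups of 3 biological replicates, 12 libraries in all. Every group was the mutant cat2-2 (catalase2-2), which lacks the main peroxisomal catalase of leaves, so that there was no wild type. Seedlings grew in liquid medium in multiwell plates for 7 days, after which the medium was exchanged for medium with 10 µM pakerine or with its solvent DMSO. Stress + Pakerine and Stress are the groups with and without the compound that, after 4 further days, spent another 2 days in plates sealed with Parafilm under 24 h of light. Pakerine and DMSO are the groups with and without the compound that were harvested after the 4 days in 16 h of light. The stressed plants were therefore older and had longer days, which cannot be told apart from the stress. The mutated gene still gave reads: CAT2 (AT4G35090) was at 108 CPM (read counts of a gene scaled to a common library total) in Stress + Pakerine and 76.1 CPM in Stress, against 37.2 CPM in Pakerine and 19.5 CPM in DMSO. Reads per gene alone do not tell whether these transcripts are complete.

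SA is made after pathogen attack and during some oxidative stresses. NPR1 binds SA and acts as a coactivator: in the nucleus it joins TGA transcription factors, which bind TGACG-type sites in promoters such as that of PR1. WRKY proteins bind W-boxes with the core TTGAC, and several of their genes are themselves turned on by SA. Plants with H2O2 accumulating in their leaves, as catalase mutants do, are known to build up SA and to express PR genes.

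The promoter stretches below show where these letters stand before 5 of the 7 genes whose levels were higher under stress. NIMIN1 and WRKY54 are not printed. Each stretch was set for its gene so as to hold such letters, so that their number within a stretch is not a result. They were read from the TAIR10.1 assembly on the strand of the gene, 5′ to 3′, and capitals mark TTGAC or TGACG on either strand, so that GTCAA and CGTCA are the same motifs read backwards. None of the stretches overlaps an annotated gene.

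PR1 (chr2:6243092-6243221, minus strand, beginning 680 bases before the gene start): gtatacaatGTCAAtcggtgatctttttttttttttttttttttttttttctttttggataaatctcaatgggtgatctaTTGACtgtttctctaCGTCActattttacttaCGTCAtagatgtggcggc
PCC1 (chr3:7846894-7846963, minus strand, beginning 130 bases before the gene start): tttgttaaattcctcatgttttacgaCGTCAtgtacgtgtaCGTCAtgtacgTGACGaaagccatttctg
NIMIN2 (chr3:9471090-9471209, minus strand, beginning 170 bases before the gene start): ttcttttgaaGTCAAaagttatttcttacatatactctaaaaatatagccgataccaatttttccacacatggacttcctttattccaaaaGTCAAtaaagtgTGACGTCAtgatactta
WRKY70 (chr3:20910664-20910723, minus strand, beginning 100 bases before the gene start): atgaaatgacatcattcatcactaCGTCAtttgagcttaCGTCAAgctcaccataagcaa
PR2 (chr3:21190218-21190247, minus strand, beginning 280 bases before the gene start): ttggttcacgctagcTTGACGtacgattaa

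The PR1 stretch holds 2 TGACG and 2 of the 6 TTGAC motifs within 1000 bases before that gene, and the stretch of PCC1 holds 3 TGACG and no TTGAC. In NIMIN2 the capitals TGACGTCA are 2 overlapping TGACG motifs, 1 on each strand, and in PR2 a TGACG overlaps a TTGAC as TTGACG, which stands in WRKY70 as CGTCAA. Within 250 bases before the annotated start, 3 of the 10 genes had a TGACG (PCC1, NIMIN2 and WRKY70), against 19.2% of the 21730 promoters of the table that could be read. PCC1 had 3 there, and 3 or more stood in 0.658% of promoters. TTGAC stood within 250 bases in 5 of the 10 genes and in 45.1% of promoters. Within 1000 bases, TTGAC was found in 8 of the 10 genes and in 88.2% of promoters, and TGACG in 7 of the 10 and in 55.0%. The 10 genes had a mean of 1.8 TGACG and 2.3 TTGAC per promoter within 1000 bases, against means of 0.873 and 2.30 over all promoters. NPR1 had neither motif within 1000 bases, and PR5 and WRKY54 had no TGACG. These are matches of letters and not measured binding.

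Values are the mean CPM that the authors give for each group, and single libraries were not analysed here. Therefore no spread between replicates stands beside the values, and no difference was tested against it. In place of a test, each log2 ratio of 2 group means carries a 95% exact counting interval, which covers counting error only and is narrower than the error between plants. "Higher" or "lower by 2-fold" refers to genes with at least 1 CPM in 1 of the 2 groups. Libraries held between 28472237 and 33512707 counted reads, and 3 reads over the libraries of a group correspond to 0.0317 to 0.0335 CPM. All 10 genes were above this in every group. The 5 leaf markers summed to between 15797 and 19435 CPM per group and none was at 0. The 8 root markers, which should be low in leaf material, were not at 0 either: they summed to 156.0 CPM in Stress + Pakerine and 26.9 CPM in Stress, against 194.4 CPM in Pakerine and 42.9 CPM in DMSO.

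Among the upstream components, NPR1 (AT1G64280, chr1:23852748-23855658) stayed within 2-fold over the groups, with 47.6 CPM in Stress + Pakerine and 51.3 CPM in Stress, against 37.0 CPM in Pakerine and 41.3 CPM in DMSO. NIMIN1 (AT1G02450, chr1:497917-498539), whose product binds NPR1 and restrains PR1 when overproduced, had 1.59 CPM in Stress + Pakerine and 1.71 CPM in Stress, against 0.102 CPM in Pakerine and 0.221 CPM in DMSO. NIMIN2 (AT3G25882, chr3:9470357-9471039), an early SA-responsive relative, had 7.83 CPM in Stress + Pakerine and 6.13 CPM in Stress, against 0.868 CPM in Pakerine and 1.14 CPM in DMSO. Both NIMIN genes were thus high in the 2 stressed groups and low in the 2 others, whereas NPR1 was not.

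WRKY70 (AT3G56400, chr3:20908711-20910623) encodes a factor downstream of NPR1 that favours SA over jasmonate responses, and it had 95.03 CPM in Stress + Pakerine and 102 CPM in Stress, against 10.0 CPM in Pakerine and 22.3 CPM in DMSO. Its closest relative WRKY54 (AT2G40750, chr2:17000419-17002528), which acts with WRKY70 in restraining SA synthesis and senescence, had 11.9 CPM in Stress + Pakerine and 10.3 CPM in Stress, against 0.564 CPM in Pakerine and 1.21 CPM in DMSO. The pair shared the order of the stressed above the non-stressed groups and of Pakerine below DMSO.

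PR1 (AT2G14610, chr2:6241640-6242541), the secreted protein most used as a marker of the SA response, had 20.7 CPM in Stress + Pakerine and 56.7 CPM in Stress, against 0.240 CPM in Pakerine and 0.25 CPM in DMSO. PR2 (AT3G57260, chr3:21188397-21189967), a β-1,3-glucanase, had 9.21 CPM in Stress + Pakerine and 15.8 CPM in Stress, against 0.466 CPM in Pakerine and 0.806 CPM in DMSO. PCC1 (AT3G22231, chr3:7845823-7846833), named for control by pathogens and by the circadian clock, encodes a small cysteine-rich membrane protein. It had 24.2 CPM in Stress + Pakerine and 12.1 CPM in Stress, against 0.242 CPM in Pakerine and 0.415 CPM in DMSO. The stressed groups were in 24 h of light and the others in 16 h. The part of this difference in the PCC1 levels was not tested. PR1 and PR2 were thus highest in Stress and PCC1 in Stress + Pakerine. Without stress, PR1 was counted from an estimated 23 reads over the 3 libraries of Pakerine and 22 reads over those of DMSO.

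PR5 (AT1G75040, chr1:28177670-28179022), a thaumatin-like protein and the other classical SA marker, did not share this pattern, with 11.4 CPM in Stress + Pakerine and 7.24 CPM in Stress, against 9.98 CPM in Pakerine and 7.76 CPM in DMSO. UGT74F2 (AT2G43820, chr2:18152078-18153908), which links glucose to SA and so lowers the free acid, had 151 CPM in Stress + Pakerine and 193 CPM in Stress, against 95.4 CPM in Pakerine and 103.6 CPM in DMSO. PR5 was higher in the 2 pakerine groups than in their matched groups without the compound, and UGT74F2 was higher in the 2 stressed groups.

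**Figure D1:**
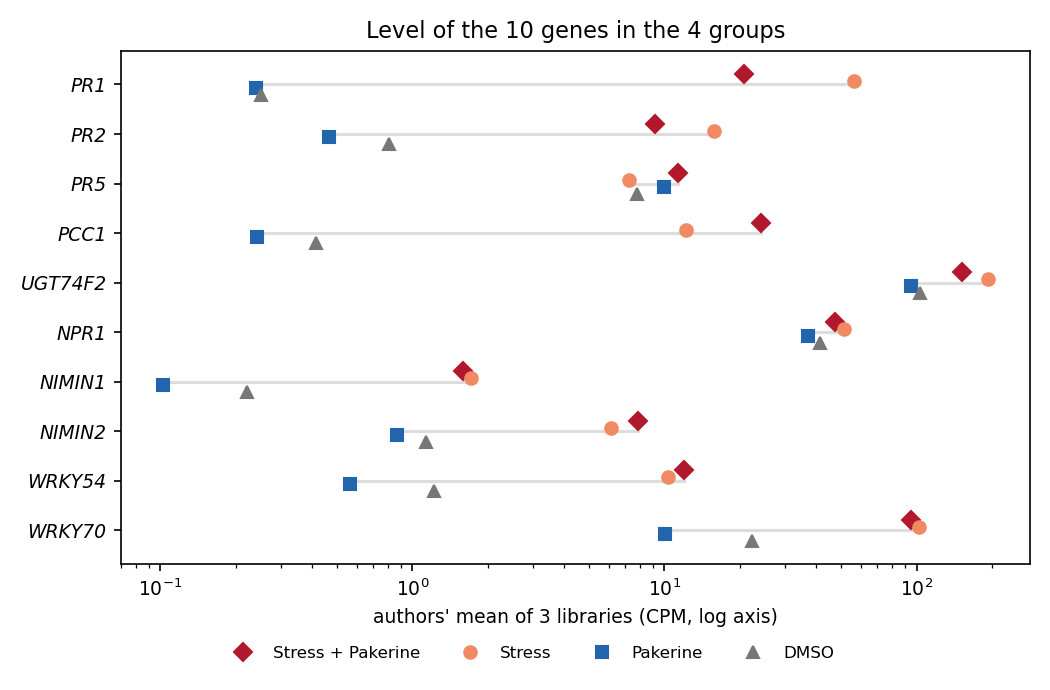
Level of the 10 genes in the 4 groups. The x axis is the authors' mean CPM of 3 libraries on a log axis, each symbol is 1 group, and the grey line spans the groups. PR1 spans 0.240 to 56.7 CPM, whereas NPR1 stays between 37.0 and 51.3 CPM.

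Levels can be compared between genes per kb of exon. In Stress + Pakerine the order was UGT74F2 (86.8 CPM per kb), WRKY70 (64.6), PCC1 (31.3), PR1 (22.9), NPR1 (18.2), NIMIN2 (11.5), PR5 (10.4), WRKY54 (8.33), PR2 (6.24) and NIMIN1 (2.56). In Stress it began with UGT74F2 (110.6 CPM per kb), WRKY70 (69.6) and PR1 (62.9), so that PR1 stood just below WRKY70. In DMSO, UGT74F2 (59.4 CPM per kb), NPR1 (15.8) and WRKY70 (15.2) were highest, and PR1 was the lowest of the 10 with 0.277 CPM per kb. Neighbours in these orders were not tested against a spread between replicates.

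The first comparison asked how the stress altered the genes without the compound. In Stress, 7 of the 10 genes were higher by 2-fold or more than in DMSO, where 4.70% of the 18679 genes were, and 0 of the 10 were lower by 2-fold, where 2.47% of genes were. Of these 7, PR1, PR2, PCC1 and NIMIN1 were under 1 CPM in DMSO. They passed the filter only through Stress, the group where they were higher. The log2 ratio of PR1, Stress over DMSO, was 7.83 (95% counting interval 7.25 to 8.53), a 227-fold difference and the highest ratio of all 18679 genes. PCC1 followed with 4.87 (4.41 to 5.39), the 13th highest, and PR2 with 4.29 (3.95 to 4.65), the 18th highest. WRKY54 had a log2 ratio of 3.09 (2.79 to 3.38), NIMIN1 of 2.96 (2.26 to 3.68), NIMIN2 of 2.43 (2.12 to 2.75) and WRKY70 of 2.20 (2.13 to 2.27). These 4 regulator genes ranked between the 58th and the 165th highest of all genes, on ratios without a pseudocount. With a pseudocount of 1 CPM the log2 ratio of NIMIN1 was 1.15 and that of PR1 5.53, and the count of 7 was the same.

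The other 3 genes were within 2-fold between Stress and DMSO. UGT74F2 had a log2 ratio of 0.90 (95% counting interval 0.86 to 0.93) and NPR1 of 0.31 (0.25 to 0.38). PR5 had a log2 ratio of -0.10 (-0.25 to 0.06), an interval that holds 0. The median over the 10 genes was 2.69, against -0.06 over all genes. These are ratios over all cells of the harvested material, in which root markers were also found. A larger share of cells with a transcript cannot be told apart from more transcript per cell.

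With pakerine present, the same 7 genes were higher under stress. Against Pakerine, 7 of the 10 genes were higher by 2-fold or more in Stress + Pakerine, where 4.87% of 19112 genes were, and 0 were lower, where 1.39% of genes were. Of these 7, only WRKY70 reached 1 CPM in Pakerine. The others passed the filter only through Stress + Pakerine, the group where they were higher. PCC1 now led, with a log2 ratio of 6.65 (95% counting interval 6.05 to 7.30), the 8th highest of all genes, and PR1 followed with 6.43 (5.82 to 7.07), the 9th highest. WRKY54 had 4.40 (4.02 to 4.84), PR2 4.30 (3.87 to 4.78), NIMIN1 3.96 (2.99 to 5.00), WRKY70 3.24 (3.15 to 3.34) and NIMIN2 3.17 (2.85 to 3.52) on the log2 scale. With a pseudocount of 1 CPM the log2 ratio of NIMIN1 was 1.23. UGT74F2 had a log2 ratio of 0.67 (0.63 to 0.70), NPR1 of 0.36 (0.30 to 0.43) and PR5 of 0.19 (0.06 to 0.31). The median over the 10 genes was 3.60, against -0.03 over all genes.

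**Figure D2:**
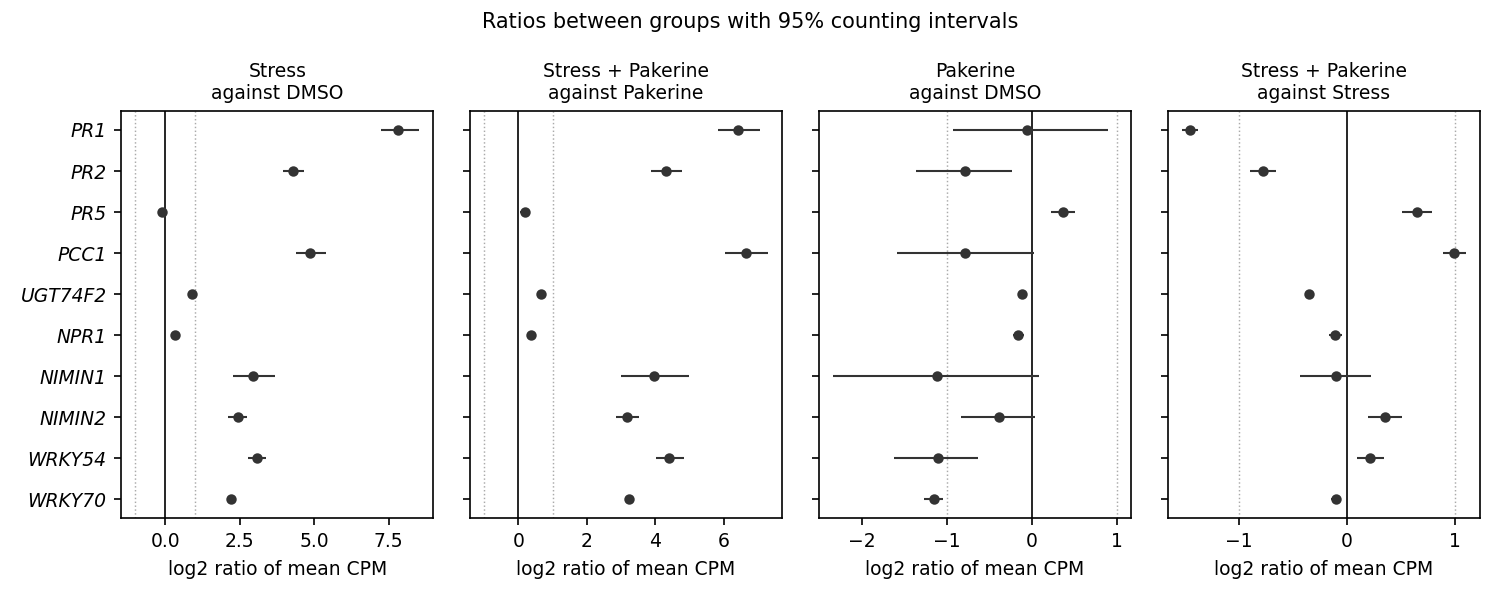
Ratios between groups for the 10 genes. Each panel is 1 comparison, points are log2 ratios of the authors' mean CPM (first-named group over the second), lines are 95% counting intervals, and dotted lines mark 2-fold. The same 7 genes lie past 2-fold in both stress panels, and PR1 is the only 1 of the 10 past 2-fold in Stress + Pakerine against Stress.

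The 2 stress ratios were then set against each other, as the log2 ratio with pakerine minus that without it. Over 19236 genes this difference had a median of 0.03, and the middle 95% of genes lay between -0.51 and 0.75. PR1 had a difference of -1.4, the 20th lowest, and 0.598% of genes lay as far from 0 or farther. PCC1 had the opposite sign with 1.77, the 43rd highest (0.244% of genes as far from 0), followed by WRKY54 with 1.32 (0.697%), WRKY70 with 1.05 (1.48%), NIMIN1 with 1.01 (1.62%) and NIMIN2 with 0.74 (3.46%). PR5 had 0.29, NPR1 0.05, PR2 0.01 and UGT74F2 -0.23. These 4 and NIMIN2 lay inside the range of the middle 95% of genes. The difference was above 0 in 8 of the 10 genes, against 56.9% of all genes, and below 0 in 2, against 43.1%. That of PR2 was so near 0 that it was below 0 under the median-ratio scaling and with pseudocounts of 1 and 0.1 CPM, which made the counts 7 and 3. For WRKY54 and WRKY70 the levels in the 2 stressed groups were close to each other and those without stress differed, whereas for PR1 the levels without stress were alike and the stressed groups differed. The differences of genes with few reads without stress depend on the pseudocount: with 1 CPM that of WRKY54 was 0.70 and that of NIMIN1 0.08, and with 0.1 CPM that of NIMIN1 was 0.57. NIMIN1 rested on an estimated 10 reads in Pakerine and 20 reads in DMSO.

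**Figure D3:**
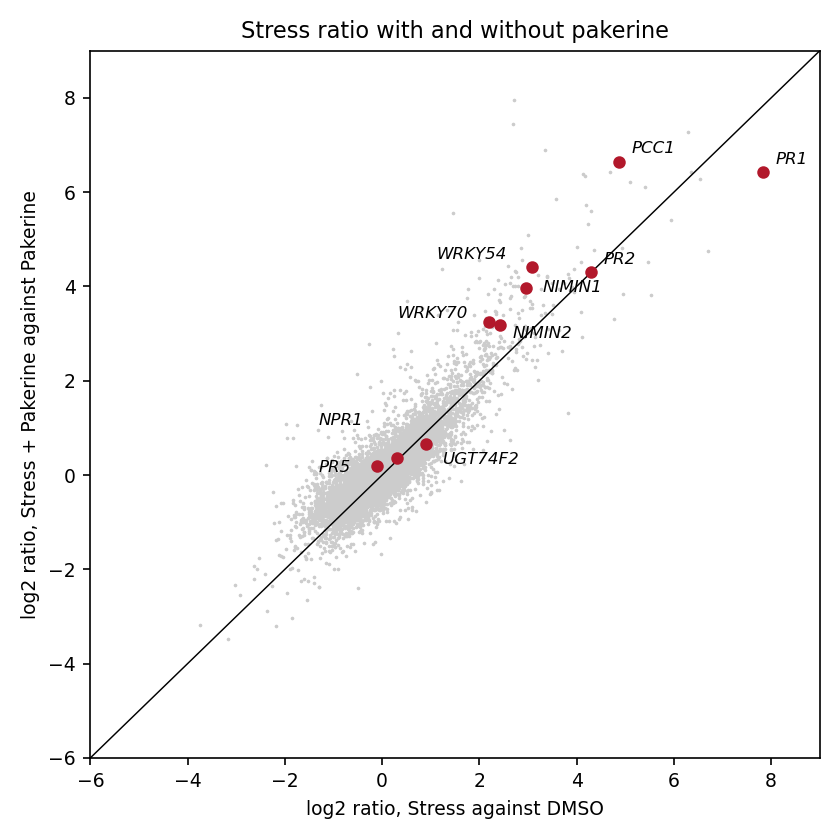
Stress ratio with and without pakerine. The x axis is the log2 ratio Stress over DMSO, the y axis the log2 ratio Stress + Pakerine over Pakerine, grey points are all genes at 1 CPM or more in at least 1 group, red points are the 10 genes, and the line marks equal ratios. PR1 lies below the line, by 1.4, and PCC1 above it, by 1.77.

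The next comparison asked what the compound did without stress. Of the 10 genes, 6 reached 1 CPM in Pakerine or DMSO, and PR1, PR2, PCC1 and NIMIN1 did not. Among these 6, 0 were higher by 2-fold in Pakerine, where 3.80% of 18858 genes were, and 2 were lower by 2-fold, where 0.504% of genes were. The lower ones were WRKY70 and WRKY54. WRKY70 had a log2 ratio of -1.15 (95% counting interval -1.27 to -1.04) and was the 57th lowest of all genes, and WRKY54 had -1.11 (-1.62 to -0.64) and was the 69th lowest. WRKY54 reached 1 CPM in DMSO only, the group where it was higher, and its log2 ratio was -0.50 with a pseudocount of 1 CPM and -0.99 with 0.1 CPM, both within 2-fold. NIMIN1 had the same log2 ratio of -1.11 and was not counted, being under 1 CPM in both groups, with an interval from -2.34 to 0.08.

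PR2 had a log2 ratio of -0.79 in Pakerine against DMSO (95% counting interval -1.37 to -0.23), NPR1 of -0.16 (-0.23 to -0.09) and UGT74F2 of -0.12 (-0.16 to -0.08). PCC1 had -0.78 (-1.59 to 0.02), NIMIN2 -0.39 (-0.83 to 0.04) and PR1 -0.06 (-0.93 to 0.89) on the log2 scale, with intervals that hold 0. PR5 alone of the 10 genes had a ratio above 0, with 0.36 (0.22 to 0.51). In all, 9 of the 10 genes were lower in Pakerine than in DMSO, where 53.7% of 21877 genes were, and 1 was higher, where 46.3% were. The counting interval lay wholly below 0 in 5 of the 10 genes, where it did so in 29.2% of genes, wholly above 0 in 1, where it did so in 26.2%, and held 0 in 4. The median over the 10 genes was -0.59 (-0.27 over the 6 at 1 CPM or more), against -0.02 over all genes.

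The last pair of groups asked what the compound did under stress. In Stress + Pakerine, 0 of the 10 genes were higher by 2-fold than in Stress, where 3.92% of 18936 genes were, and 1 was lower by 2-fold, where 0.158% of genes (30 genes) were. That gene was PR1, with 20.7 CPM in Stress + Pakerine against 56.7 CPM in Stress, a log2 ratio of -1.46 (95% counting interval -1.53 to -1.38), 2.74-fold lower and the 7th lowest of all genes. PR2 was lower in the same direction, with -0.78 (-0.90 to -0.65), the 83rd lowest, and UGT74F2 with -0.35 (-0.38 to -0.32), the 702nd lowest. PCC1 had the opposite sign, with a log2 ratio of 0.99 (0.89 to 1.1), which is 1.99-fold and just inside the 2-fold limit. Under a median-ratio scaling of the groups it was past that limit.

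PR5 also had a higher level in Stress + Pakerine than in Stress, with a log2 ratio of 0.65 (95% counting interval 0.51 to 0.79). NIMIN2 had 0.35 (0.19 to 0.51) and WRKY54 had 0.21 (0.09 to 0.34). WRKY70 had -0.11 (-0.15 to -0.07), NPR1 -0.11 (-0.17 to -0.05) and NIMIN1 -0.11 (-0.44 to 0.22), the last with an interval that holds 0. The 4 classical and pathogen-linked output genes were thus divided, with PR1 and PR2 lower and PCC1 and PR5 higher with the compound. Over the 10 genes, 4 ratios were above 0, where 53.7% of 21881 genes were, and 6 below it, where 46.3% were. The counting interval lay wholly above 0 in 4, where it did so in 31.0% of genes, wholly below 0 in 5, where it did so in 24.3%, and held 0 in 1. The median of the 10 was -0.11, against 0.01 over all genes.

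Root markers were more abundant with the compound in these leaf samples. In Pakerine against DMSO, 7 of 8 were higher by 2-fold or more, where 3.80% of all genes were. In Stress + Pakerine against Stress, 7 of 8 were higher by 2-fold or more, where 3.92% of all genes were. The part of root material in the ratios of the 10 genes was not tested. The leaf markers were all higher in Stress + Pakerine than in Stress, none of the 5 by 2-fold. In Pakerine against DMSO, where both WRKY genes were lower, the leaf marker LHCB1.1 was also lower by 2-fold, with 53.6 CPM in Pakerine against 125.8 CPM in DMSO and a log2 ratio of -1.23 (95% counting interval -1.28 to -1.18), while the other 4 were above 0.

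Against unstressed, untreated plants, 7 of the 10 genes were higher by 2-fold in Stress + Pakerine than in DMSO, where 8.30% of 19052 genes were, and 0 were lower, where 1.74% of genes were. Here too PR1, PR2, PCC1 and NIMIN1 passed the filter of 1 CPM only through the stressed group. The log2 ratios, Stress + Pakerine over DMSO, were 6.37 for PR1, 5.86 for PCC1, 3.51 for PR2, 3.30 for WRKY54, 2.85 for NIMIN1, 2.78 for NIMIN2 and 2.09 for WRKY70. PR5 and UGT74F2 had 0.55 each and NPR1 had 0.20 on the log2 scale. This comparison shares its DMSO libraries with Stress against DMSO and with Pakerine against DMSO, and its Stress + Pakerine libraries with the others, so that they are not independent of each other.

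Other genes of the pathway were counted in 10 lists with 75 genes, of which 68 were in the table. These lists, too, were chosen with earlier results of these data known. In Stress against DMSO, 24 of 64 list genes at 1 CPM or more were higher by 2-fold, 2 were lower and 38 were within 2-fold, with a median log2 ratio of 0.54. In Stress + Pakerine against Stress, 3 of 64 were higher, 0 were lower and 61 were within 2-fold. Over all genes, 4.70% were higher and 2.47% lower in the first of these comparisons and 3.92% higher and 0.158% lower in the second, so that the counts of the second are near those of all genes.

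The partners of NPR1 were divided. Of its 5 relatives, 1 was higher by 2-fold in Stress than in DMSO, NPR2, with 6.71 CPM in Stress against 2.83 CPM in DMSO and a log2 ratio of 1.24 (95% counting interval 1.03 to 1.46). NPR3, an SA receptor that represses SA-responsive genes, had 0.92 (0.86 to 0.99), and BOP2, a relative known from leaf development, was lowest with 0.13 (0.01 to 0.24). In Stress + Pakerine against Pakerine, 3 of the 5 were higher by 2-fold, where 4.87% of all genes were. In Stress against DMSO, where 4.70% of all genes were higher and 2.47% lower, none of the 7 TGA factors passed 2-fold. Their log2 ratios there ran from -0.18 for TGA4 to 0.65 for TGA5. GRX480, a glutaredoxin that binds TGA factors, was the only 1 of 4 other NPR1-linked genes past 2-fold, with a log2 ratio of 2.87 (2.16 to 3.72), and NIMIN3, the third of the NIMIN family, had -0.19 (-0.27 to -0.11). In Stress + Pakerine against Stress, 0 of these 16 genes were past 2-fold, where 3.92% of all genes were higher and 0.158% lower, so that the count is near that of all genes. The log2 ratios in that comparison ran from -0.09 for NPR3 to 0.22 for BOP1, from -0.19 for TGA5 to 0.16 for TGA3, and from -0.27 for NIMIN3 to -0.02 for GRX480.

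Relatives of WRKY54 and WRKY70 differed more. Of the other WRKY genes of group III, the subfamily of both, 5 were at 1 CPM or more in Stress or DMSO, of which 4 were higher and 1 lower by 2-fold in Stress. Over all genes, 4.70% were higher and 2.47% lower. WRKY38 led with 2.63 CPM in Stress against 0.149 CPM in DMSO, a log2 ratio of 4.14 (95% counting interval 3.38 to 5.11), and WRKY41 was the lower one with -1.44 (-1.77 to -1.13). WRKY62 had the highest ratio of the list in Stress + Pakerine against Stress, with 0.95 (0.59 to 1.31) on the log2 scale, and WRKY41 the lowest, with 0.20 (-0.16 to 0.58). Of the other WRKY genes tied to SA, 3 of 4 were higher by 2-fold in Stress than in DMSO, with WRKY58 highest at 2.5 (1.97 to 3.08) and WRKY40 lowest at 0.77 (0.67 to 0.87) on the log2 scale. In Stress + Pakerine against Stress they ran from -0.47 (-0.79 to -0.15) for WRKY58 to 0.20 (0.14 to 0.27) for WRKY60.

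Of the genes that make SA or control its synthesis, 6 of 10 were higher by 2-fold in Stress than in DMSO and 0 were lower. Over all genes, 4.70% were higher and 2.47% lower. PBS3, which conjugates isochorismate to glutamate on the way to SA, was highest with 20.5 CPM in Stress against 2.67 CPM in DMSO, a log2 ratio of 2.94 (95% counting interval 2.74 to 3.14), and ICS2, the minor isochorismate synthase, was lowest with -0.06 (-0.32 to 0.20). In Stress + Pakerine against Stress none of these 10 passed 2-fold, where 3.92% of all genes were higher and 0.158% lower. That count is near that of all genes. Their log2 ratios ran from -0.28 (-0.36 to -0.20) for the activator CBP60g to 0.83 (0.72 to 0.95) for EDS5, the SA-precursor transporter of the plastid. A further list held genes that conjugate or hydroxylate SA, beside UGT74F2, together with methyl esterase genes, which do neither. Of these, 4 of 8 were higher by 2-fold in Stress, led by the SA hydroxylase DLO1 with 3.70 (2.86 to 4.68). The methyl esterase gene MES7 was lowest with -0.39 (-0.64 to -0.15). The methyl esterase MES1 was the only one of these 8 past 2-fold in Stress + Pakerine against Stress, with 1.39 (1.13 to 1.66), and DLO1 was lowest with -0.34.

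Of the secretory genes under control of NPR1, 0 of 8 were past 2-fold between Stress and DMSO, where 4.70% of all genes were higher and 2.47% lower, so that nothing particular to these genes can be read from the count. Their log2 ratios ran from -0.21 for the chaperone CNX1 to 0.53 for BIP3, whose log2 ratio in Stress + Pakerine against Stress was 1.67 (95% counting interval 1.5 to 1.85). CRT3, a calreticulin gene, was lowest there with -0.05. The PR genes of the jasmonate and ethylene branch, often opposed to SA, were also higher in Stress than in DMSO, 4 of 5 by 2-fold, with the chitinase gene PR3 lowest at 0.83 (0.67 to 0.99). Their highest log2 ratio was that of the defensin gene PDF1.2b, with 4.68 (4.28 to 5.14), and PDF1.2b was lowest of the 5 in Stress + Pakerine against Stress, with -0.62 (-0.74 to -0.49), and PDF1.2c highest with 0.68 (0.43 to 0.94). The PDF1.2 genes are near-identical copies, so that their separate levels are uncertain.

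**Figure D4:**
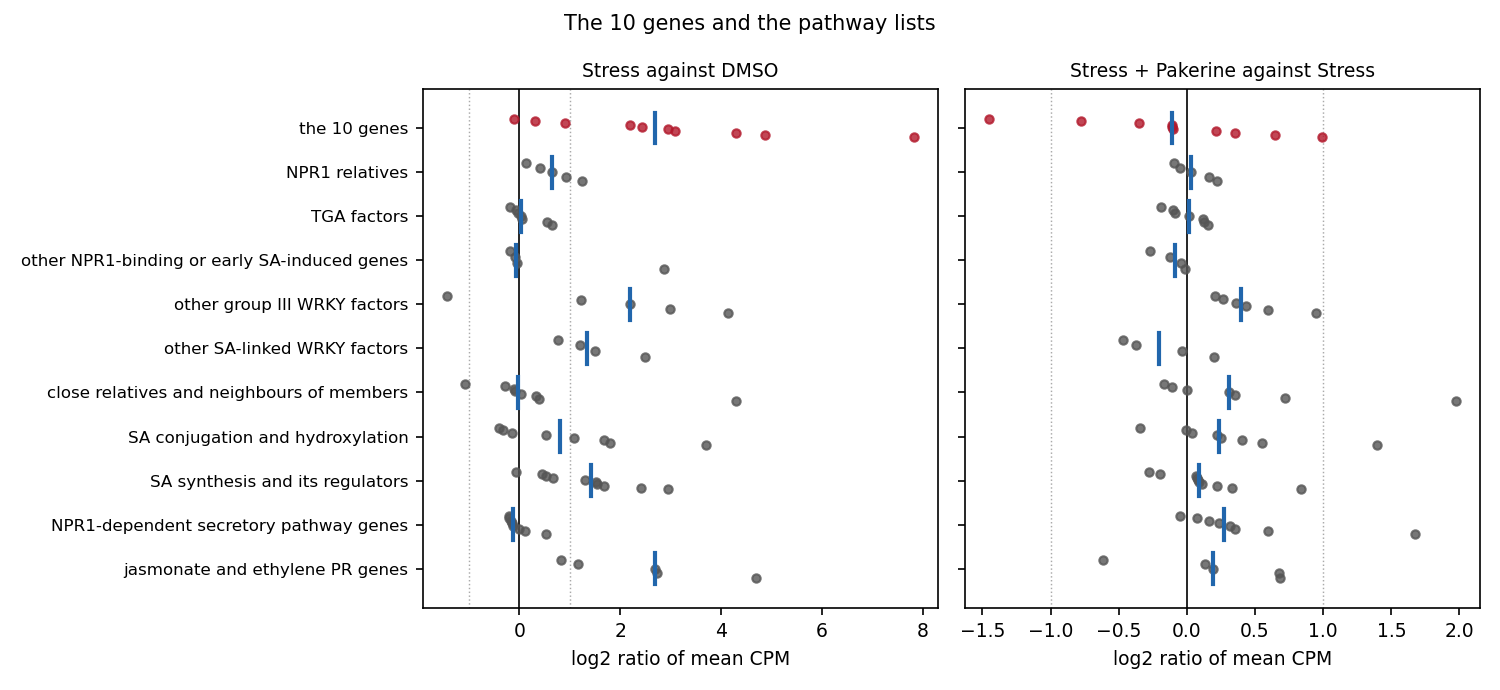
The 10 genes and the 10 pathway lists. The x axis is the log2 ratio of mean CPM, each point is 1 gene at 1 CPM or more, the blue bar is the median of the list, and dotted lines mark 2-fold. Left, Stress against DMSO, with the median of the 10 genes at 2.69; right, Stress + Pakerine against Stress, with PR1 at -1.46 on the far left.

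Close relatives of the output genes, most of them neighbours on the chromosome, are given with all groups. PRB1 (chr2:6225351-6226227), a basic PR1 relative close to PR1, had 3.69 CPM in Stress + Pakerine and 3.99 CPM in Stress, against 2.02 CPM in Pakerine and 3.90 CPM in DMSO. PR1-like (AT2G19990), also of this family, had 6.59 CPM in Stress + Pakerine and 1.67 CPM in Stress, against 11.7 CPM in Pakerine and 1.80 CPM in DMSO. It was higher by 2-fold with the compound in both settings, with log2 ratios of 1.98 (95% counting interval 1.73 to 2.24) in Stress + Pakerine against Stress and 2.71 (2.47 to 2.95) in Pakerine against DMSO, whereas PR1 was lower or alike.

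BG3 (chr3:21181642-21183144), the glucanase gene beside PR2, had 1.05 CPM in Stress + Pakerine and 1.05 CPM in Stress, against 0.802 CPM in Pakerine and 0.797 CPM in DMSO. TLP3 (chr1:28174187-28175456), the thaumatin-like gene beside PR5, had 0.711 CPM in Stress + Pakerine and 0.540 CPM in Stress, against 0.95 CPM in Pakerine and 1.13 CPM in DMSO. OSM34, an osmotin of the same protein family as PR5, had 12.6 CPM in Stress + Pakerine and 7.64 CPM in Stress, against 16.9 CPM in Pakerine and 8.10 CPM in DMSO. OSM34 shared with PR5 the higher level in both pakerine groups, with log2 ratios of 0.72 (95% counting interval 0.58 to 0.85) in Stress + Pakerine against Stress and 1.06 (0.93 to 1.19) in Pakerine against DMSO.

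AT3G22235 (chr3:7854419-7855814), a relative of PCC1 on the same stretch of chromosome, had 23.9 CPM in Stress + Pakerine and 18.7 CPM in Stress, against 0.494 CPM in Pakerine and 0.95 CPM in DMSO. Its log2 ratio in Stress against DMSO was 4.30 (95% counting interval 3.99 to 4.63), beside 4.87 for PCC1, and no other relative passed 2-fold upward in that comparison. Of the 75-base stretches of PCC1, the length of the reads, 24.7% (173 of 699) also occur in AT3G22235, so that reads of this pair may be divided between them and their levels are uncertain. The further relative AT3G22240 (chr3:7863606-7864895) had 18.2 CPM in Stress + Pakerine and 20.5 CPM in Stress, against 21.4 CPM in Pakerine and 16.2 CPM in DMSO, and had the lowest log2 ratio of these relatives in Stress + Pakerine against Stress, with -0.17 (-0.27 to -0.08). UGT74F1 (chr2:18157529-18159231), the SA glucosyltransferase gene next to UGT74F2, had 2.58 CPM in Stress + Pakerine and 2.09 CPM in Stress, against 2.95 CPM in Pakerine and 2.55 CPM in DMSO.

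NPR1 and UGT74F2 overlap other genes. NPR1 shares 5.51% of its 75-base stretches (140 of 2540) with the non-coding AT1G08667 on the opposite strand. It is also overlapped by the pseudogene AT1G64270 on the opposite strand. UGT74F2 is overlapped by the transcribed pseudogene AT2G43830 on the opposite strand. The sources used here do not give whether reads were counted by strand, so that reads of the partners of NPR1 cannot be told apart from its own. For UGT74F2, 0 of 1670 such stretches occurred in another transcript. The 8 genes other than PCC1 and NPR1 share no such stretch with another transcript.

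Over the 4 groups, the genes whose pattern was most like that of PR1 were sought as the smallest root mean square distance of log2 mean CPM, each gene centred on its own mean, among 19226 genes. They were PCR1 (distance 0.46), AT3G15310 (0.62), AT2G15020 (0.69), AT3G28510 (0.89) and the senescence-associated SAG13 (1.00), where the median over all genes was 3.63. PCR1 had 12.2 CPM in Stress + Pakerine and 23.6 CPM in Stress, against 0.156 CPM in Pakerine and 0.255 CPM in DMSO. Of the 5, PCR1, AT3G15310, AT3G28510 and SAG13 were highest in Stress as PR1 was, although AT3G15310 had 3.52 CPM in Stress + Pakerine and 3.64 CPM in Stress. Without stress AT3G15310 had 0.041 CPM in Pakerine and 0.045 CPM in DMSO. These values are close to the CPM of 3 reads over a group, so that its distance is uncertain.

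NPR1, with its narrow range, had many near neighbours, led by ML1 (distance 0.0049), AT1G33415 (0.0080), DCL1 (0.0098), AT3G09100 (0.011) and KUP11 (0.011), where the median over all genes was 0.26. The genes nearest to PR5 were FER2 (0.023), P4H2 (0.026), AT3G61560 (0.033), AT1G27030 (0.035) and AT3G06035 (0.035), where the median was 0.32. FER2 encodes a ferritin, and it had 1.65 CPM in Stress + Pakerine and 1.08 CPM in Stress, against 1.49 CPM in Pakerine and 1.18 CPM in DMSO. None of the genes named as nearest to PR5 or NPR1 was among the nearest to PR1, which follows from the far wider range of PR1.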

How the data were processed

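RNA of 12 leaf libraries (4 groups of 3) was sequenced as single-end reads of 75 bases. According to the methods and the submitters' notes (CASAVA 1.8), reads were trimmed with Trim Galore 0.3.3, aligned to TAIR10 with TopHat2 2.1.0 and counted per gene with featureCounts of Subread 1.4.6, and genes above 0.12 CPM in 3 or more samples were kept. The deposited values used here are the authors' mean CPM per group, not TMM-scaled. Another 19 columns hold the authors' own comparisons (log2 fold changes, p-values, FDR and calls) and were not used. Treatment fields of the labels set the groups, and the headings of the table name the group of each mean. For 6 libraries (Stress and Pakerine) the title names the other of these groups than the treatment fields, and how the authors assigned them before averaging is not shown by the table.

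Library sizes were read from the smallest steps of the mean CPM (2e-08 CPM allowed), which gave reads per group and 95% exact (Clopper-Pearson) intervals of ratios. A ratio was counted at 2-fold or more with at least 1 CPM in either group, on CPM without a pseudocount. Promoters and transcripts came from RefSeq, TAIR10.1, whereas the table has no coordinates. The 10 genes and the lists were chosen with earlier results of these data known. Text names the 10 genes, of each list the highest and lowest ratio in Stress against DMSO and Stress + Pakerine against Stress, all close relatives, and the 5 nearest patterns of PR1, NPR1 and PR5. Of the lists, 7 genes were not analysed here. Other scalings, pseudocounts, filters and folds were tried. The counting was tested on simulated data. Python 3.11.15, numpy 2.4.6, pandas 2.3.3, scipy 1.17.1 and matplotlib 3.10.9 were used.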

Additional observations from a re-analysis of the deposited data

How the results depend on the processing

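No paired analysis was possible because the table holds group means, and for the same reason no replicate could be left out. Of the 50 log2 ratios of the 10 genes, 0 changed sign under a median-ratio scaling of the groups, CPM without the 100 most abundant genes, or a pseudocount of 1 or 0.1 CPM. The largest shift was 2.73 with a pseudocount of 1 CPM, that of NIMIN1 in Stress + Pakerine against Pakerine, and 0.05 with the median-ratio scaling. The difference between the stress ratios of PR2, 0.01, was -0.006 under the median-ratio scaling, -0.41 with a pseudocount of 1 CPM and -0.09 with 0.1 CPM, and that of WRKY54, 1.32, was 0.70 with 1 CPM. For the 10 genes, the 2 lower by 2-fold in Pakerine against DMSO became 1 with a pseudocount of 1 or 0.1 CPM, with a filter of 5 CPM and with counting intervals wholly past 2-fold, and 0 at 3-fold, with WRKY54 lost in each. In Stress + Pakerine against Stress, 1 gene was higher by 2-fold under the median-ratio scaling (PCC1) and 2 at 1.5-fold, against 0, and the 1 lower gene became 2 at 1.5-fold and 0 at 3-fold. For the pathway lists, the 24 higher in Stress against DMSO became 15 at 3-fold, and the 2 lower became 0 with a pseudocount of 1 CPM, a filter of 5 CPM or 3-fold, and 1 with a pseudocount of 0.1 CPM or with intervals wholly past 2-fold. In Pakerine against DMSO, the 3 higher became 6 at 1.5-fold and 1 at 3-fold, and the 0 lower became 5 without a filter and 3 at 1.5-fold. At 1.5-fold, the 3 higher in Stress + Pakerine against Stress became 10 and the 0 lower became 1, and the 0 lower in Stress + Pakerine against Pakerine became 2. The 1 lower in Stress + Pakerine against DMSO became 0 with a pseudocount of 1 CPM, a filter of 5 CPM, 3-fold or intervals wholly past 2-fold, and 2 at 1.5-fold. The fewer or more calls at other folds, filters and pseudocounts follow from their construction. Depth limits PR1, PR2, PCC1 and NIMIN1 in the groups without stress, all under 1 CPM there, and NIMIN2 and WRKY54 in Pakerine, where they were under 1 CPM.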
